A study of Mus musculus with 44 samples.

Results

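The enzymes that hydroxylate and crosslink collagen were examined in mouse back skin before, during and after injury with bleomycin. The 10 genes were listed by enzyme class, with earlier results of these data known: the lysyl oxidases Lox, Loxl1, Loxl2, Loxl3 and Loxl4, the lysyl hydroxylases Plod1, Plod2 and Plod3, and the prolyl 4-hydroxylase alpha subunits P4ha1 and P4ha3. The alpha subunit P4ha2 is not among them and is described with the further collagen genes. They are 10 of 43411 genes in the expression table. All 10 had a mean above 3 normalized counts, a filter that 17037 genes passed.

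Fibrillar collagens are modified at several points on their way to a fibre. In the endoplasmic reticulum, prolyl 4-hydroxylases make the hydroxyproline that keeps the collagen helix stable at body temperature, and lysyl hydroxylases turn chosen lysines into hydroxylysine, which decides what kind of crosslink can form later. After secretion, the copper-dependent lysyl oxidases convert lysines and hydroxylysines of collagen and lysines of elastin to aldehydes that join neighbouring molecules, and these crosslinks set how stiff skin is and how well its matrix resists degradation.

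The mice were wild-type C57Bl/6 females aged 8 weeks when the experiment began. Treated mice received 100 µL of bleomycin at 1 U/mL under the skin of the back each day according to the labels (a supplement of the study states a lower concentration), and were harvested after 2 weeks (10 mice) or 4 weeks (10 mice), or after 4 weeks of bleomycin and a further 6 weeks (6 mice) or 10 weeks (8 mice) of recovery. A single group of 10 mice received saline. The harvest time of the saline group is not given in the sources used here and the recovery mice were older at harvest than the mice taken during treatment, so age and recovery cannot be told apart. Bleomycin injection is a model of the skin fibrosis of systemic sclerosis, and the RNA came from whole skin biopsies with all their cell types.

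Each mouse gave 1 library, with 8509094 to 15285577 reads counted on genes and a median of 11310008. Libraries of bleomycin at 4 weeks and of both recovery groups were deeper (group medians of 11528777 to 12905996 reads) than those of saline and 2 weeks of bleomycin (9523976 and 9863482 reads). Saline mouse 1 and 2-week mouse 2 were least like the other mice of their groups, with a median correlation of 0.942 and 0.938 across genes, against 0.947 for the next mouse. Results on the enzymes that rest on these 2 mice are given with and without them. Fibroblast, keratinocyte, endothelial, macrophage, fat and Schwann cell markers were detected in every group, as were genes of skeletal muscle, at a median mean log2 level of 14.65 to 14.97.

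The enzymes took different courses: 6 of the 10 passed the test in at least 1 comparison, and Plod1, Plod2, Plod3 and P4ha1 in none. The share of all genes called in at least 1 of the 7 comparisons was not computed, so shares are given per comparison. A gene was called when its fold change was above 1.5 and its adjusted p-value below 0.05 (limma, Benjamini-Hochberg over all 17037 genes). At 2 weeks of bleomycin 3 members were called against saline, where 16.7% of all tested genes were. P4ha3 was the 1 higher (9.30% of all genes) and Loxl1 and Loxl2 the 2 lower (7.43%). At 4 weeks 4 members were called, where 17.9% of all genes were. Lox, Loxl3 and P4ha3 were higher (10.5% of all genes) and Loxl1 was lower (7.37%). After 6 weeks of recovery 4 members were called, Lox, Loxl1, Loxl3 and P4ha3, all of them higher, where 5.04% of all genes were called and 3.33% were called higher. After 10 weeks P4ha3 alone was called (1 of 10 members; 3.05% of all genes were called, and 2.05% called higher), and Loxl3 came next with an adjusted p-value of 0.0794. The median log2 fold change over the 10 members was -0.06, 0.14, 0.35 and 0.09 in this order, and over all genes it was 0.0 each time. These 4 comparisons use the same saline mice.

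**Figure D1:**
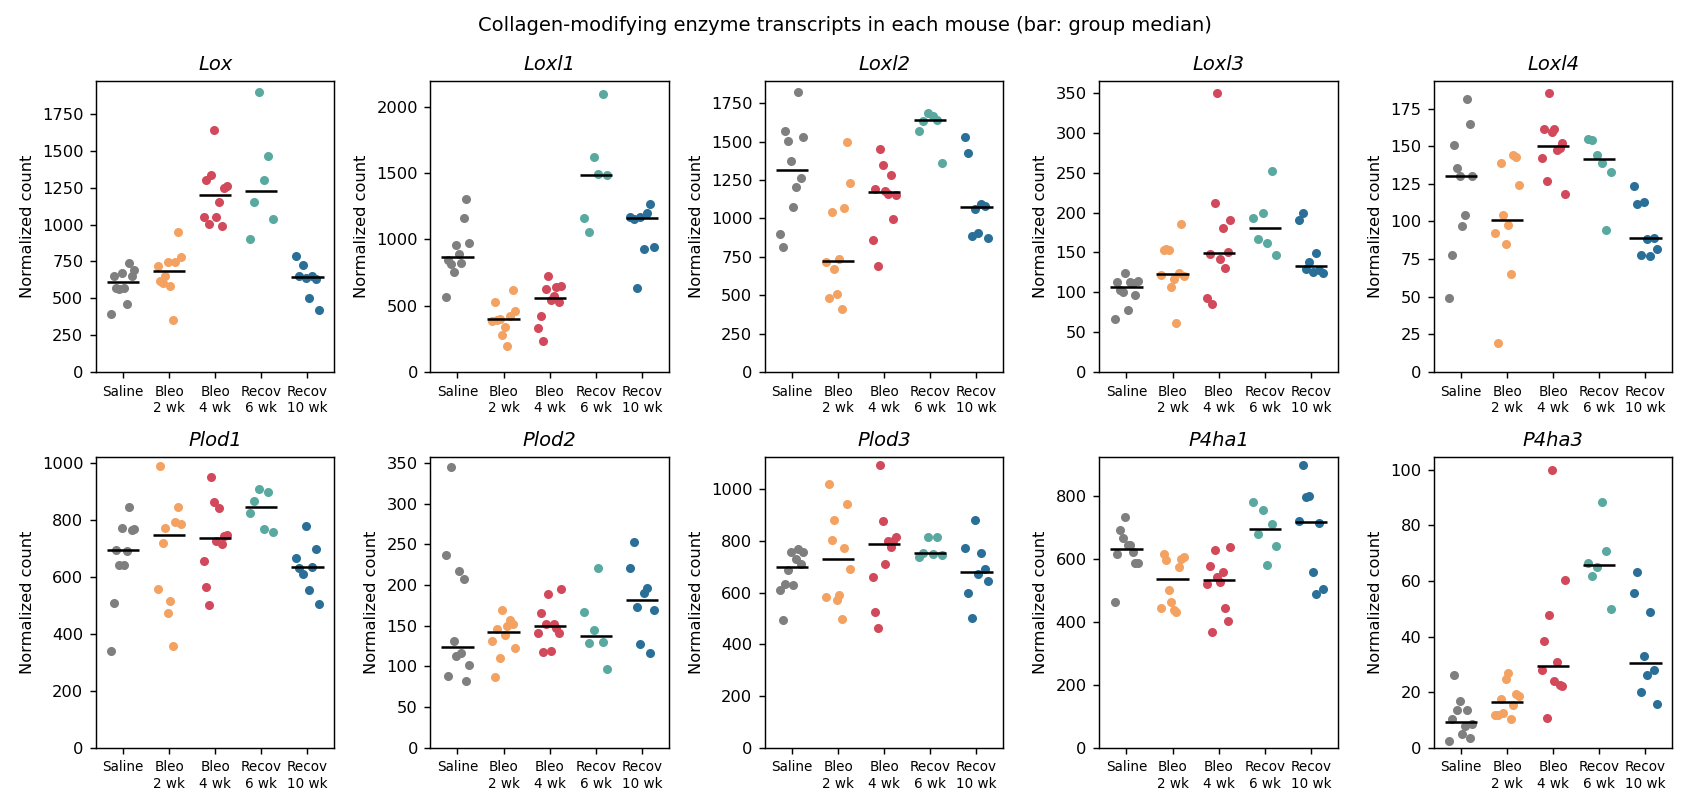
Normalized counts of the 10 enzymes in each of the 44 mice, with 1 panel per gene and a linear axis from 0; points are mice and bars are group medians. Lox stands above every saline mouse at 4 weeks of bleomycin and at 6 weeks of recovery, Loxl1 is low during bleomycin and high at 6 weeks of recovery, and P4ha3 is above every saline mouse at 6 weeks of recovery.

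**Figure D2:**
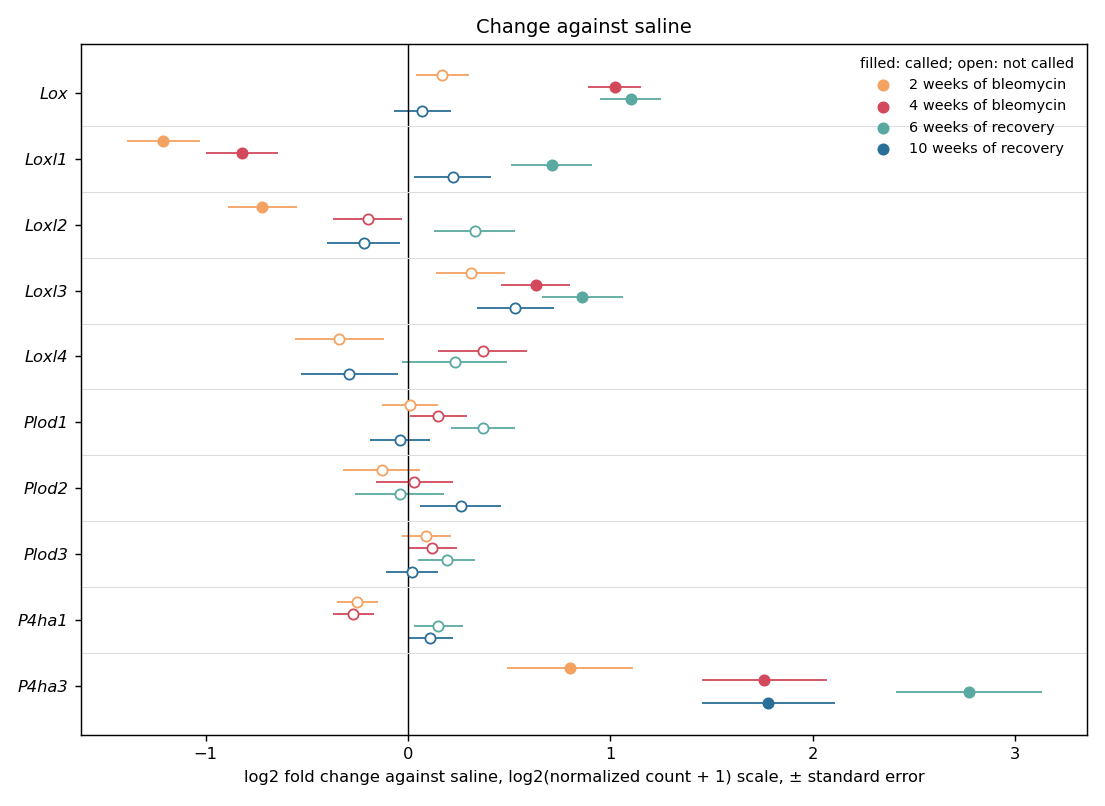
Log2 fold change of each enzyme against saline in the 4 groups, on the log2(normalized count + 1) scale, with bars of 1 standard error; filled points passed the fold and p thresholds and open points did not. The 3 lysyl hydroxylases and P4ha1 have only open points, and P4ha3 only filled ones.

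Lox, the founding lysyl oxidase and a main crosslinker of skin collagen and elastin (chr18:52516067-52529867, minus strand, GRCm38), rose late in treatment and was still high 6 weeks after it stopped. Its normalized counts ranged from 396 to 738 in saline (lowest to highest mouse), with a median of 610, and from 355 to 951 (median 686) at 2 weeks of bleomycin. At 4 weeks they ranged from 988 to 1644 (median 1201), and after 6 weeks of recovery from 903 to 1897 (median 1228). After 10 weeks of recovery they ranged from 418 to 790 (median 642). All mice at 4 weeks of bleomycin and at 6 weeks of recovery lay above every saline mouse, and 1 of the 8 mice at 10 weeks of recovery lay above the saline range.

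Against saline the log2 fold change of Lox was 1.02 ± 0.13 (SE; adjusted p = 4.62e-08) at 4 weeks and 1.10 ± 0.15 (adjusted p = 4.75e-06) at 6 weeks of recovery, or 2.03-fold and 2.14-fold. At 2 weeks it was 0.17 with a 95% interval of -0.10 to 0.44, and at 10 weeks of recovery 0.07 with an interval of -0.22 to 0.36. The differences in time were tested directly. Lox was higher at 4 than at 2 weeks of bleomycin by 0.85 ± 0.13 (adjusted p = 1.74e-04), and lower at 10 than at 6 weeks of recovery by 1.03 ± 0.16 on the log2 scale (log2 fold change -1.03, adjusted p = 0.00101). In both of these the mice of the groups did not overlap, which held for 0.106% of all genes in the higher direction from 2 to 4 weeks and for 0.587% in the lower direction from 6 to 10 weeks. Lox was 1 of 15 genes called from 6 to 10 weeks of recovery, 0.0880% of those tested, and 1 of the 12 called lower (0.0704%). The number of genes called there was 21 with edgeR, 60 with DESeq2 and 58 without the 2 mice least like their groups. The fibrillar collagens Col1a1, Col1a2, Col3a1, Col5a1 and Col5a2 also lay wholly lower at 10 than at 6 weeks, at -1.25 to -0.60 on the log2 scale against -1.03 for Lox. All 5 had an unadjusted p below 0.05, and they were called by limma in 0 cases (adjusted p = 0.0523 to 0.228), by edgeR in 1, and by DESeq2 or without the 2 mice in 4. Between 4 weeks of bleomycin and 6 weeks of recovery Lox differed by 0.08, with an interval of -0.24 to 0.39.

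Loxl1, which is needed to keep elastic fibres in repair (chr9:58287738-58313186, minus strand), moved the other way during treatment. Saline mice ranged from 568 to 1305 normalized counts (median 865), 2-week mice from 195 to 616 (median 396) and 4-week mice from 234 to 727 (median 558). After 6 weeks of recovery the range was 1058 to 2097 (median 1488), and after 10 weeks 635 to 1268 (median 1160). In every mouse given bleomycin for 2 or 4 weeks Loxl1 lay below the saline mean, and at 6 weeks of recovery every mouse lay above it.

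Loxl1 fell by 1.21 ± 0.18 on the log2 scale at 2 weeks (adjusted p = 4.65e-07) and by 0.82 ± 0.18 at 4 weeks (adjusted p = 2.34e-04), and was 0.71 ± 0.20 above saline after 6 weeks of recovery (adjusted p = 0.0224). Between 4 weeks of bleomycin and 6 weeks of recovery it rose by 1.53 ± 0.20 (adjusted p = 1.79e-07), and all 6 recovery mice were above all 10 bleomycin mice. At 10 weeks of recovery the log2 fold change against saline was 0.22, with an interval of -0.16 to 0.60 that includes the fold threshold. Without saline mouse 1 and 2-week mouse 2, no bleomycin mouse at either time reached the lowest saline mouse in Loxl1, which held for 2.38% of all genes in the lower direction at 2 weeks and for 3.22% at 4 weeks. Fibroblast markers moved in part with Loxl1: 4 of 8 (Dpt, Pdgfra, Fbn1 and Col6a1) fell at 2 weeks and 3 of 8 at 4 weeks, and 2 (Dpt and Fbn1) rose from there to 6 weeks of recovery. Against saline, 0 of 8 were called higher at 6 weeks of recovery, and Pdgfra was still lower at 6 and 10 weeks. Lum was at 0.30 ± 0.12 at 2 weeks, which did not pass. The summed level of the list was 25345 to 59196 normalized counts in saline, 23488 to 47875 at 2 weeks, 31519 to 41815 at 4 weeks and 43157 to 55529 at 6 weeks of recovery. Fat cell markers moved with Loxl1 too: Lep and Plin1 fell at 2 weeks, Lep, Plin1 and Fabp4 fell at 4 weeks, and these 3 of 6 rose between 4 weeks of bleomycin and 6 weeks of recovery. Their summed median was 13013 normalized counts in saline, 10263 at 2 weeks, 8737 at 4 weeks and 13819 at 6 weeks of recovery. The part of either cell type in the fall of Loxl1 was not tested. In whole skin, fewer cells of a type and less RNA per cell cannot be told apart.

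Loxl2, which crosslinks collagen IV of basement membranes as well as fibrillar collagen (chr14:69609068-69695834, plus strand), fell at 2 weeks and was called in no other comparison. It ranged from 814 to 1824 normalized counts in saline (median 1317), from 409 to 1498 (median 726) at 2 weeks and from 688 to 1452 (median 1169) at 4 weeks. Recovery mice ranged from 1358 to 1689 (median 1638) at 6 weeks and from 872 to 1527 (median 1074) at 10 weeks. The groups overlapped throughout, and 6 of the 10 mice at 2 weeks lay below every saline mouse. The log2 fold change was -0.72 ± 0.17 at 2 weeks (adjusted p = 9.18e-04), and the other differences from saline had intervals of -0.55 to 0.15 at 4 weeks, -0.08 to 0.73 at 6 weeks of recovery and -0.60 to 0.15 at 10 weeks. An antisense transcript shares 301 exon bases with Loxl2.

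Loxl3, known for crosslinking in developing skeleton and muscle attachments (chr6:83034173-83052562, plus strand), rose at 4 weeks of bleomycin and at 6 weeks of recovery. Its normalized counts ranged from 66.8 to 124 in saline (median 107), from 61.9 to 186 (median 123) at 2 weeks and from 85.0 to 351 (median 149) at 4 weeks. At 6 weeks of recovery they ranged from 147 to 252 (median 180), above every saline mouse, and at 10 weeks from 124 to 199 (median 133). The log2 fold change was 0.63 ± 0.17 at 4 weeks (adjusted p = 0.00391) and 0.86 ± 0.20 at 6 weeks of recovery (adjusted p = 0.00428). Without the 2 mice least like their groups the 4-week value was 0.56 and below the fold threshold. At 10 weeks of recovery all 8 mice lay above the saline mean and 7 above every saline mouse, with a log2 fold change of 0.53 ± 0.19 (adjusted p = 0.0794) that did not pass. Htra2 on the opposite strand shares 535 exon bases with Loxl3, and the strand setting used for counting is not given in the sources used here.

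Loxl4 (chr19:42593982-42612813, minus strand), a secreted oxidase with the scavenger receptor domains that Loxl2 and Loxl3 also carry, was called in no comparison with saline. Saline mice ranged from 48.9 to 181 normalized counts (median 130), 2-week mice from 19.5 to 144 (median 101) and 4-week mice from 118 to 185 (median 150). Recovery mice ranged from 94.3 to 155 (median 142) at 6 weeks and from 77.1 to 123 (median 88.8) at 10 weeks. It was higher at 4 than at 2 weeks of bleomycin by 0.71 ± 0.22 (adjusted p = 0.0473). It and Lox were the 2 members called there, where 2.35% of all genes were called and 1.49% called higher. That difference rested in part on 2-week mouse 2, the lowest mouse at 19.5, and was 0.47 without it and saline mouse 1.

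The balance between the oxidases shifted. Per kilobase of exon, the 5 genes summed to a median of 697 normalized counts in saline, 444 at 2 weeks, 696 at 4 weeks, and 1042 and 747 in the 6-week and 10-week recovery groups. Lox made up a median of 17.9% of that sum in saline (15.6% to 23.3% over mice), 30.4% at 2 weeks, 36.3% at 4 weeks (29.5% to 45.9%), 24.0% at 6 weeks of recovery and 17.7% at 10 weeks. Loxl1 made up 38.9% in saline (33.7% to 48.0%), 24.9% at 2 weeks, 23.8% at 4 weeks (15.5% to 27.6%), 39.9% at 6 weeks of recovery and 47.2% at 10 weeks. Loxl2 made up 36.3% in saline (25.8% to 41.0%), 32.5% at 2 weeks, 30.1% at 4 weeks (26.8% to 33.8%), 26.8% at 6 weeks of recovery and 27.8% at 10 weeks. The highest median share was that of Loxl1 in saline and in both recovery groups, of Loxl2 at 2 weeks and of Lox at 4 weeks. In saline the ranges of Loxl1 and Loxl2 overlapped, and at 4 weeks those of Lox and Loxl2 did and those of Lox and Loxl1 did not. Loxl3 and Loxl4 stayed below 10% in every mouse (at most 8.21% and 6.61%).

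In each mouse the ratio of Lox to Loxl1 per kilobase gives the same picture on a log2 scale. It ran from -1.54 to -0.90 in saline (median -1.05), from -0.30 to 0.90 at 2 weeks (median 0.24) and from 0.10 to 1.56 at 4 weeks (median 0.60). At 6 weeks of recovery it ran from -1.05 to -0.31 (median -0.81) and at 10 weeks from -1.71 to -0.35 (median -1.41). Every bleomycin mouse had a higher ratio than every saline mouse at both times. The ratio combines values already described and was not tested.

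**Figure D3:**
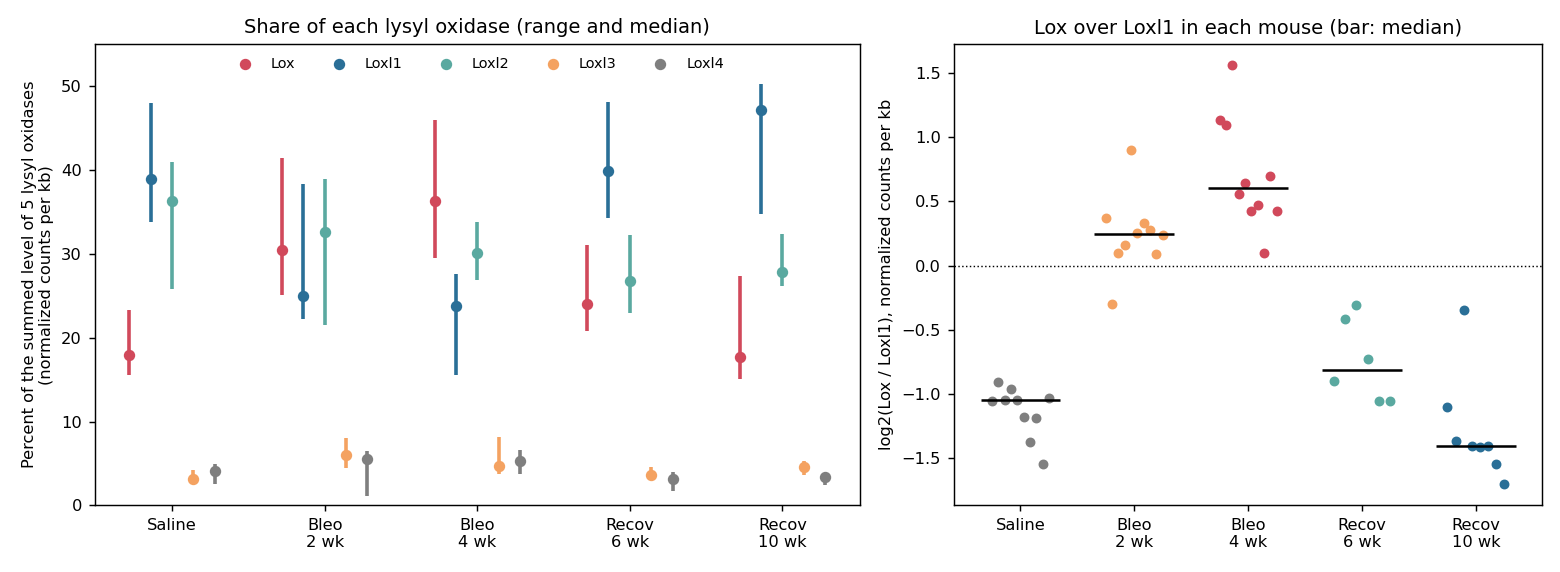
Left, share of each of the 5 lysyl oxidases in their summed level (percent of normalized counts per kilobase of exon); lines run from the lowest to the highest mouse and points are medians. Right, log2 ratio of Lox to Loxl1 per kilobase in each mouse with group medians; the bleomycin groups sit above all saline mice, and 4-week mice have more Lox than Loxl1 transcript in every case.

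The lysyl hydroxylases were called in none of the 7 comparisons by limma, edgeR or DESeq2, and 1 of the 3 had an unadjusted p below 0.05 at 6 weeks of recovery and 1 between 6 and 10 weeks. Plod1, the enzyme for lysines within the collagen helix (chr4:147909753-147936767, minus strand), had medians of 694 normalized counts in saline, 747 at 2 weeks, 736 at 4 weeks, and 847 and 634 in the 6-week and 10-week recovery groups. Its 95% intervals against saline ran from -0.28 to 0.30 at 2 weeks, -0.14 to 0.44 at 4 weeks, 0.04 to 0.70 at 6 weeks of recovery and -0.34 to 0.26 at 10 weeks, so that a change beyond the threshold of 0.585 lay within the interval at 6 weeks of recovery and at no other time. All 6 mice at 6 weeks of recovery were above the saline mean (760 to 909 normalized counts), with an adjusted p-value of 0.15.

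Plod2, whose product hydroxylates the lysines at the collagen ends that give the stable pyridinoline crosslinks of fibrotic tissue (chr9:92542223-92608428, plus strand), varied more among saline mice than between groups. Saline mice ranged from 82.4 to 345 normalized counts (median 124). Mice at 2 weeks ranged from 87.1 to 169 (median 142), at 4 weeks from 118 to 195 (median 150), at 6 weeks of recovery from 96.2 to 221 (median 138) and at 10 weeks from 117 to 253 (median 182). The saline range took in every mouse of the other groups. The intervals against saline were -0.51 to 0.25, -0.35 to 0.41, -0.48 to 0.40 and -0.15 to 0.66 in that order, and the last includes the threshold. A transcript on the opposite strand shares 346 exon bases with Plod2.

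Plod3, which also adds sugars to hydroxylysine (chr5:136987019-136996648, plus strand), had medians between 680 and 787 normalized counts in all 5 groups. Its intervals against saline were -0.15 to 0.34, -0.12 to 0.37, -0.09 to 0.48 and -0.24 to 0.28, none of which reached the threshold. Mice on bleomycin were more spread (496 to 1021 at 2 weeks and 464 to 1093 at 4 weeks) than at 6 weeks of recovery (736 to 816). Znhit1 on the opposite strand shares 529 exon bases with Plod3.

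Of the 2 members that encode catalytic alpha subunits of prolyl 4-hydroxylase, 1 was called against saline at every time and the other at none. P4ha1 (chr10:59323296-59373304, plus strand) encodes the main alpha subunit of most cells, and P4ha3 (chr7:100285520-100319699, plus strand) a minor one. The 250 bases before the start of each gene are shown because both encode alpha subunits of the same enzyme class while their transcripts took different courses. A link between sequence and course was not tested. Capitals mark GGGCGG (the GC box bound by Sp1) and ACGTG or GCGTG (the core of the hypoxia response element), each on either strand. The sequences are from RefSeq on GRCm38.p6, plus strand, 5′ to 3′, for chr7:100285270-100285519 and chr10:59323046-59323295.
P4ha3: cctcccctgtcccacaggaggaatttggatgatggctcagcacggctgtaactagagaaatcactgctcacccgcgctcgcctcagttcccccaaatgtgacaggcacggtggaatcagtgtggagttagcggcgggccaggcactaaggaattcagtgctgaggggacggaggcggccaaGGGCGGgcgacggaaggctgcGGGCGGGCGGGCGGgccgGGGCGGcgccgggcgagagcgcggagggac
P4ha1: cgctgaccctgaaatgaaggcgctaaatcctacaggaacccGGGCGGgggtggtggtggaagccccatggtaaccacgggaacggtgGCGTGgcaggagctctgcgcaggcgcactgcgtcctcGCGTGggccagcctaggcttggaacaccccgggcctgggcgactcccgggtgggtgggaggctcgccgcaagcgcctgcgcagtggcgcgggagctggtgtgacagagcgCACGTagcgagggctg

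The P4ha3 stretch held 5 GC boxes, of which 3 overlap one another, and no hypoxia core, and the P4ha1 stretch held 1 GC box and 3 hypoxia cores. Of 32851 mouse promoters of the same length, 32.7% held a GC box and 38.6% a hypoxia core. TATAAA (12.4% of promoters), CCAAT (33.8%) and CAGAC (the SMAD box, 42.2%) were in neither stretch on either strand. The GC content was 67.2% for P4ha3 and 69.6% for P4ha1, against a median of 52.4% over all promoters. The shares over all promoters were not matched for GC content. RefSeq promoters were at hand for 5 of the 10 members, with Plod1, Plod3 and Loxl4 beside these. Loxl4 held 3 GC boxes and 1 hypoxia core, Plod1 held 2 and 1, and Plod3 held 0 and 4. These genes were not called against saline.

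P4ha3 rose from near the limit of detection. Saline mice ranged from 2.38 to 26.1 normalized counts (median 9.36, 2 to 22 reads), and 2 of them had no more than 3 reads. Mice at 2 weeks ranged from 10.3 to 26.9 (median 16.4) and at 4 weeks from 10.8 to 99.9 (median 29.3). After 6 weeks of recovery they ranged from 50.04 to 88.4 (median 65.8), above every saline mouse, and after 10 weeks from 15.6 to 63.2 (median 30.5). P4ha3 was the member with the largest fold change at 4 weeks and at both recovery times, and it was still called after 10 weeks of recovery.

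The log2 fold change of P4ha3 was 1.76 ± 0.31 at 4 weeks (adjusted p = 1.33e-05), 2.77 ± 0.36 at 6 weeks of recovery (adjusted p = 8.41e-07) and 1.78 ± 0.33 at 10 weeks (adjusted p = 6.13e-04), on a scale that understates changes of genes with few reads. All 10, 6 and 8 mice of these groups lay above the saline mean. At 2 weeks it was 0.80 ± 0.31 (adjusted p = 0.0410), a call lost under 5 of 12 alternatives, among them the fit without the 2 mice least like their groups. From 2 to 4 weeks of bleomycin it differed by 0.97 ± 0.31, which limma did not call (adjusted p = 0.0554) and edgeR and DESeq2 did (1.18 with both, adjusted p = 0.0161 and 0.00552). P4ha3 was higher at 6 weeks of recovery than at 4 weeks of bleomycin by 1.01 ± 0.36 (adjusted p = 0.0344), a call lost under 4 alternatives. It and Loxl1 were the 2 members called in that comparison, where 11.9% of all genes were called and 4.80% called higher. From 6 to 10 weeks of recovery it differed by -0.99 ± 0.38 (adjusted p = 0.314), which did not pass.

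P4ha1 was called in no comparison. Its medians were 634 normalized counts in saline (463 to 733), 538 at 2 weeks (431 to 616), 535 at 4 weeks (369 to 641), 696 at 6 weeks of recovery (582 to 783) and 719 at 10 weeks (489 to 900). No group stood apart from saline. At 4 weeks of bleomycin the log2 fold change was -0.27 ± 0.10 (adjusted p = 0.0359) and from there to 6 weeks of recovery 0.42 ± 0.12 (adjusted p = 0.00797), both smaller than the fold threshold. Per kilobase, P4ha1 had a median of 154 normalized counts in saline against 2.99 for P4ha3, and 169 against 21.0 at 6 weeks of recovery.

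Across the members, groups that did not overlap were few. At 4 weeks of bleomycin 1 member (Lox) lay wholly above saline, where 4.31% of all genes did. After 6 weeks of recovery 3 members (Lox, Loxl3 and P4ha3) did, against 1.41% of all genes. Between 4 weeks of bleomycin and 6 weeks of recovery it was 1 member (Loxl1), against 4.44% of all genes.

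The enzymes were next set against their substrate. The 5 fibrillar collagen genes Col1a1, Col1a2, Col3a1, Col5a1 and Col5a2 had a median mean log2 level of 13.78 in saline, 12.96 at 2 weeks, 13.85 at 4 weeks, and 14.28 and 13.29 in the 6-week and 10-week recovery groups. Col1a1, Col1a2 and Col5a1 fell at 2 weeks (Col1a1 log2 fold change -0.71 ± 0.24, adjusted p = 0.0148), and Col3a1, at -0.56 ± 0.22, did not pass the fold threshold. By limma and edgeR 0 of the 5 were called at 4 weeks of bleomycin or at either recovery time, and by DESeq2 2 at 10 weeks of recovery (0, 3 and 2 at an unadjusted p below 0.05 in time order). Of the 5, 4 were higher at 4 than at 2 weeks (Col1a1 1.01 ± 0.24, adjusted p = 0.00763). At 10 weeks of recovery Col1a1 was at -0.72 ± 0.25 (adjusted p = 0.0754), and 2 of the 5 collagens were called once the 2 mice least like their groups were left out.

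When the mean log2 level of these 5 collagens was subtracted in each mouse before the test, all genes shifted together: the median over all genes was then 0.67 at 2 weeks, -0.15 at 4 weeks, and -0.53 and 0.46 in the 6-week and 10-week recovery groups (log2). The members' values are therefore set beside the share of all genes called. Relative to the collagens, Lox (0.83 ± 0.19), Loxl3 (0.98 ± 0.22), Plod1 (0.68 ± 0.19), Plod3 (0.76 ± 0.19) and P4ha3 (1.46 ± 0.31) were called at 2 weeks. These are 5 of 10 members, all higher, where 58.3% of all genes were called higher, so that the members' share was no larger than that of all genes. At 4 weeks 3 members were called, Lox (0.87 ± 0.19) and P4ha3 (1.62 ± 0.31) higher (5.98% of all genes) and Loxl1 (-0.97 ± 0.18) lower (7.94%). After 6 weeks of recovery it was P4ha3 alone (2.24 ± 0.35), where 0.346% of all genes were called higher, and Lox was at 0.57 ± 0.22 (adjusted p = 0.0630). At 10 weeks it was Loxl1 (0.68 ± 0.19), Loxl3 (0.98 ± 0.23) and P4ha3 (2.23 ± 0.33), where 10.9% of all genes were called higher. P4ha3 was called higher than the collagens in all 4 groups. Lox was at 0.52 ± 0.20 after 10 weeks (adjusted p = 0.0778), near the all-gene median of 0.46. Its 95% intervals lay above 0 in all 4 groups (0.12 to 1.02 and 0.11 to 0.94 in recovery), with calls at 2 and 4 weeks. Because all genes shifted, 0 does not mark the typical gene. The Lox intervals at 2 weeks (0.44 to 1.22) and at 10 weeks of recovery took in the all-gene medians of 0.67 and 0.46.

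**Figure D4:**
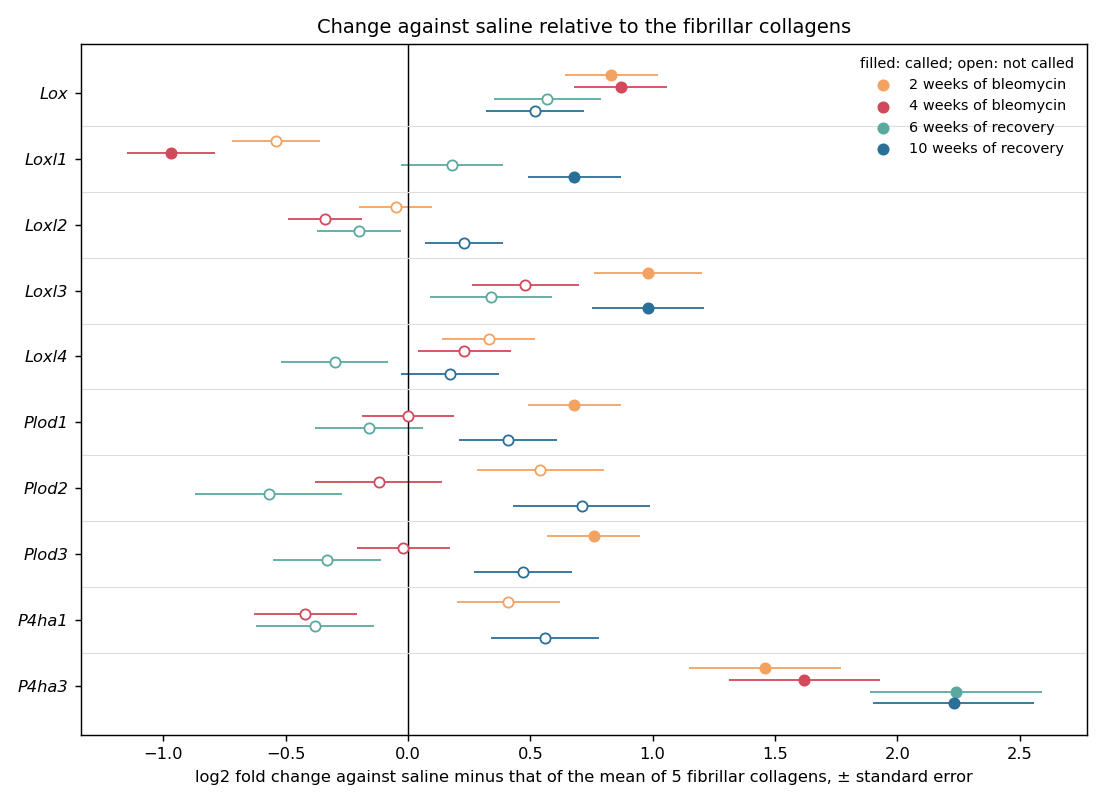
Log2 fold change against saline of each enzyme after subtraction of the mean log2 level of 5 fibrillar collagens in the same mouse, with bars of 1 standard error; filled points passed the thresholds. P4ha3 is to the right of 0 with filled points in all 4 groups, and Loxl1 is to the left at both bleomycin times and to the right at 10 weeks of recovery.

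With the mean level of 8 fibroblast markers subtracted in place of the collagens, the median over all genes was 0.68, 0.44, -0.07 and 0.21 in time order, and the same 5 members were called at 2 weeks (60.5% of all genes were called higher). At 4 weeks Lox (1.46 ± 0.13), Loxl3 (1.07 ± 0.16), Loxl4 (0.81 ± 0.16), Plod1 (0.59 ± 0.11) and P4ha3 (2.20 ± 0.29) were called higher, as were 30.7% of all genes. The difference for Loxl1 was then -0.53 ± 0.14 at 2 weeks (limma, adjusted p = 8.49e-04). At 4 weeks it was -0.38 ± 0.14 (adjusted p = 0.0192), and neither passed the fold threshold. The 95% intervals for Loxl1, -0.82 to -0.25 and -0.67 to -0.10, lay below the all-gene medians of 0.68 and 0.44. All genes shifted in this test too, so 0 does not mark the typical gene. At 6 weeks of recovery Lox (1.03), Loxl1 (0.64), Loxl3 (0.80) and P4ha3 (2.71) were called (2.15% of all genes were called higher), and at 10 weeks Loxl3 (0.74 ± 0.17) and P4ha3 (1.99 ± 0.31) were, with 5.16% of all genes called higher.

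Macrophage markers rose with bleomycin, 4 of 6 at each time, and their summed level was 3044 to 8598 normalized counts in saline, 5994 to 18858 at 2 weeks, 6287 to 14908 at 4 weeks and 4743 to 6152 at 6 weeks of recovery. Genes of the growing hair follicle fell, all 6 found in the table, of 8 listed, at 2 and at 4 weeks, with a median summed level of 39533 in saline, 23.5 at 2 weeks, 42.3 at 4 weeks, and 10352 and 87640 in the 6-week and 10-week recovery groups. Between 4 weeks of bleomycin and 6 weeks of recovery 4 macrophage markers fell and the 6 hair follicle genes rose. The hair follicle genes thus fell and rose at the same times as Loxl1. Schwann cell markers rose at 4 weeks (5 of 5) and at 6 weeks of recovery (5 of 5), with a summed level of 1657 to 4528 in saline, 3860 to 6580 at 4 weeks and 4286 to 7176 at 6 weeks of recovery, and 4 of 6 endothelial markers rose at 6 weeks of recovery (2848 to 3674, against 1312 to 2679 in saline), as did 2 (Emcn and Pecam1) at 2 and at 4 weeks of bleomycin. After 10 weeks of recovery 4 of 5 Schwann cell markers were still called higher by limma. At that time 2 were called with edgeR and with DESeq2, and 1 without the 2 mice least like their groups. Without those mice 3 of the 5 were called at 4 weeks of bleomycin. The pericyte and muscle genes Des and Rgs5, of 6 listed for smooth muscle and pericytes, rose at 2 and 4 weeks and at 6 weeks of recovery, as P4ha3 did, and Rgs5 was still called at 10 weeks. At 4 weeks 1 gene of that list was called without the 2 mice least like their groups. Cspg4 of that list fell at 2 weeks, and the T cell genes Cd8a and Cd3d (2 of 5) rose at 2 weeks. No marker of these lists was at 0 in every mouse. The part of these cell types in the results on the enzymes was not tested.

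The remaining hydroxylation and folding machinery was examined in the same way. Of 22 further genes for collagen modification, folding and export, 3 were called at 2 weeks, where 16.7% of all genes were. At 4 weeks and in the 6-week recovery group 1 each was called, where 17.9% and 5.04% of all genes were. Between 4 weeks of bleomycin and 6 weeks of recovery Serpinh1 and P3h3 were called higher, as were 4.80% of all genes. At 2 weeks Serpinh1, the collagen chaperone of the endoplasmic reticulum, fell by 0.68 ± 0.13 on the log2 scale (adjusted p = 8.20e-05), Creb3l1, a factor that drives collagen secretion, fell by 0.83 ± 0.13, and Tmem38b, an ion channel needed for collagen modification in bone, rose by 0.95 ± 0.10. Tmem38b remained higher at 4 weeks (1.18 ± 0.10) and at 6 weeks of recovery (0.72 ± 0.12). P4hb, the beta subunit shared by all prolyl 4-hydroxylases, lay within 0.07 of saline on the log2 scale in all 4 groups (SE 0.05 to 0.06), and P4ha2, the remaining alpha subunit, was at -0.37 ± 0.13 at 2 weeks and 0.25 ± 0.15 at 6 weeks of recovery, below the fold threshold. The prolyl 3-hydroxylase P3h1 ran from -0.23 to 0.28 over the 4 groups and the galactosyltransferase Colgalt1 from -0.02 to 0.43, with no call. For Colgalt1 the adjusted p was 1.75e-05 at 2 weeks (0.37 ± 0.07) and 1.60e-06 at 4 weeks (0.43 ± 0.07), where every mouse lay above every saline mouse, and the size stayed below the fold threshold. At 10 weeks of recovery, where limma called 3.05% of all genes, 0 of 22 were called by limma, edgeR or DESeq2, or without the 2 mice (4 at an unadjusted p below 0.05).

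Several genes that process the propeptides of collagen fell at 2 weeks. Of 7 tested, 4 fell, where 7.43% of all genes did: the enhancers Pcolce2 (-1.16 ± 0.18) and Pcolce (-0.68 ± 0.18) and the proteinases Adamts2 (-0.86 ± 0.17) and Adamts3 (-1.25 ± 0.40). Bmp1, Adamts14 (-0.21) and Tll1 (-0.11) were not called. DESeq2 also called 4 of the list at 2 weeks, and edgeR 3. Adamts3 was at a low level, with means of 9.11 normalized counts in saline and 4.05 at 2 weeks. At 4 weeks Pcolce2 alone was lower (-1.03 ± 0.18). Bmp1, which cleaves both procollagen and the Lox propeptide, was at -0.51 ± 0.09 (adjusted p = 1.82e-05) at 2 weeks and -0.23 ± 0.09 at 4 weeks, within the fold threshold. Between 4 weeks of bleomycin and 6 weeks of recovery Pcolce2 and Pcolce rose again, by 0.80 ± 0.21 and 0.74 ± 0.21.

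The elastic fibre genes Eln and Ltbp4 fell during bleomycin. Of 14 genes for their binding partners, elastic substrate and copper supply, 4 fell at 2 weeks: Eln, the elastin substrate (-1.44 ± 0.21), Ltbp4, an elastic fibre assembly protein (-1.29 ± 0.17), Fn1, fibronectin (-1.13 ± 0.19), and Fmod, fibromodulin, which guides Lox to collagen (-0.72 ± 0.28). At 4 weeks Eln (-1.04 ± 0.21) and Ltbp4 (-0.72 ± 0.17) were lower and Thbs1 (0.71 ± 0.24) higher. Efemp2, Fbln5 and Emilin1, further elastic fibre genes of the list, were called at neither time. Their log2 fold changes at 2 weeks were -0.11, -0.21 and 0.04. At 6 weeks of recovery Fmod (1.08 ± 0.32) and Fn1 (0.82 ± 0.22) were higher and Atp7a, the copper pump that loads secreted enzymes, lower (-1.0 ± 0.32). Eln rose between 4 weeks of bleomycin and 6 weeks of recovery by 1.51 ± 0.24 (adjusted p = 5.00e-06), beside the 1.53 of Loxl1 in the same comparison, and Fn1 (1.16 ± 0.22) and Ltbp4 (0.77 ± 0.19) rose and Atp7a fell (-1.32 ± 0.32) with it. Thbs1 was the gene of this list called by limma at 10 weeks (0.86 ± 0.25, adjusted p = 0.0322), where edgeR called 0 and DESeq2 2. At 2 weeks edgeR and DESeq2 each called 3 of the list, and at 4 weeks each called 2.

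Among 6 crosslinking enzymes of other chemistry, Tgm2, tissue transglutaminase, rose at 2 weeks (0.62 ± 0.14) and 4 weeks (0.88 ± 0.14), and F13a1, the factor XIII subunit made by macrophages, fell in all 4 groups (-0.75, -0.64, -0.72 and -0.63). Without the 2 mice least like their groups, 1 of the 6 was called at 2 weeks. Of 20 genes of the hypoxia response, which is known to induce several of these hydroxylases, Ero1l fell at 2 and 4 weeks (-0.71 ± 0.17 and -0.87 ± 0.17) and Egln3 at 2 weeks (-0.62 ± 0.16). After 6 weeks of recovery 0 of the 20 were called by limma, edgeR or DESeq2 (6 at an unadjusted p below 0.05), and after 10 weeks 0 by limma and 1 by each of the others (5 at an unadjusted p below 0.05).

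Over the 44 mice, the genes whose log2 levels followed each member most closely differed between members. The values describe these mice, which share treatment groups and tissue makeup, and carry no test. The highest Pearson correlations were with Ctsk (0.86) and Lhfpl2 (0.78) for Lox, Cd248 and Serpinf1 (both 0.95) for Loxl1, Fbln2 (0.93) and Col5a1 (0.92) for Loxl2, P4ha3 (0.78) and Mxra8 (0.77) for Loxl3, and Pcdhgc3 (0.89) and Cyth3 (0.88) for Loxl4. They were with Acvrl1 and Anxa5 (both 0.86) for Plod1, Mtap and Azin1 (both 0.66) for Plod2, Rin3 (0.90) and Gnai2 (0.87) for Plod3, Pfkl and St13 (both 0.81) for P4ha1, and Col8a1 and C1qtnf3 (both 0.84) for P4ha3. Between members the closest pairs were Plod1 with Plod3 (0.80), Loxl3 with P4ha3 (0.78) and Loxl1 with Loxl2 (0.72), and Lox with Loxl1 were at 0.18. The order changed after each group's mean was taken off. Plod1 with Plod3 (0.81) then came first, followed by Loxl1 with Plod1 (0.77), Plod3 (0.75) and Loxl3 (0.74), with Loxl3 and P4ha3 at 0.64, Loxl1 and Loxl2 at 0.63, and Lox and Loxl1 at 0.59.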

How the data were processed

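RNA from the back skin of 44 mice was sequenced by the authors on a stranded poly(A) library. Reads were aligned to mm10 with STAR 2.4.0 and scaled with DESeq2 1.12.3, per the labels and the study's methods. The deposited values are a signal per gene, the read count of a mouse divided by its size factor, called normalized counts here. How reads were assigned to genes (tool, strand, annotation) is not given in the sources used here, so genes that overlap others or have close paralogs are uncertain. Whole reads were recovered from the deposited signal: 100.0% of values above 0 lay within 0.01 of a whole read in the mouse with the lowest share. All columns matched a labelled sample.

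Symbols, positions and exon lengths were taken from GENCODE (GRCm38), in which 42929 of 43411 identifiers (98.9%) matched. Groups follow the labels. Differential expression was tested with limma 3.58.1 in R 4.3.3 after adding 1 to the normalized counts and taking log2. The filter was a mean over 3, a single fit held the 5 groups, and p-values were adjusted by Benjamini-Hochberg over 17037 genes. A call needed more than a 1.5-fold difference (0.585 in log2) at an adjusted p-value below 0.05. The 95% intervals are standard errors times the t quantile at 39 degrees of freedom. For the relative tests the mean log2 level of a list was subtracted from every gene in each mouse and the fit repeated. Tests were tried on simulated data for 4 weeks of bleomycin against saline with 17037 genes: limma called 50 of 50 genes in each class of change (2-fold and 4-fold, up and down), and the relative test 48 of 50 in 1 class (lower by 2-fold) and 50 of 50 in the others. The changed genes all had means above that of P4ha3 in saline, and the spread between mice was set by a formula. Outlying mice and a shared shift of the collagens were not simulated, so the trial does not cover those settings. Alternatives were a pseudocount of 0.1, other filters and thresholds, TMM and quantile scaling, fits limited to the groups compared, a block for the replicate number, recovered reads in edgeR 4.0.16 and in DESeq2 1.42.0, the median of a list, and leaving out 2 mice. Counts of non-overlapping groups without those mice, and of pathway genes without them or with edgeR or DESeq2, were chosen after seeing the data. Between mice of a group the chi-square was at least 5.32 per degree of freedom, so no pair of mice agreed within sampling noise. The labels name no sequencing batch. Mice of a group are separate animals.

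The members and gene lists were chosen with earlier results of these data known. The genes named are all 10 members, for each member the 2 genes with the highest correlation, up to 4 called genes per pathway list and comparison, and P4ha2, P4hb, P3h1, Serpinh1, Colgalt1, Bmp1, Col1a1, Col3a1 and Eln. Some further genes of the lists are named where they were not called. Python 3.11.15 with numpy 2.4.6, pandas 2.3.3 and matplotlib 3.10.9 was used. Histology was not analysed here.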

Additional observations from a re-analysis of the deposited data

Results flagged for a closer look

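On the log2 scale a single mouse lay far from the rest of its group in 8 of 50 combinations of gene and group. Chance gives about 2.5. The gap to the next mouse was set against the range of the group. The mouse was the lowest of its group each time. The log2 scale widens gaps at the low end, so the mice flagged and their side depend on that scale. The values below are normalized counts. At 2 weeks of bleomycin, mouse 7 had 355 normalized counts of Lox, the other mice 585 to 951, and 61.9 of Loxl3, the others 107 to 186. Mouse 2 of the same group had 19.5 of Loxl4, the others 65.3 to 144. At 6 weeks of recovery, mouse 6 had 1358 of Loxl2 against 1570 to 1689 in the others, and mouse 5 had 94.3 of Loxl4 against 133 to 155. At 10 weeks of recovery, mouse 3 had 635 of Loxl1 against 923 to 1268. In saline, mouse 2 had 496 of Plod3 against 609 to 768, and mouse 1 had 463 of P4ha1 against 587 to 733.

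Differences between time points that passed the test were 0.85 on the log2 scale for Lox and 0.71 for Loxl4 at 4 against 2 weeks of bleomycin, and -1.03 for Lox at 10 against 6 weeks of recovery (limma, adjusted p = 1.74e-04, 0.0473 and 0.00101).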

How the results depend on the processing

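Of 17 calls of members over the 7 comparisons, 13 held under all 12 alternatives and 4 were lost under at least 1, and no direction turned. Calls were also gained: P4ha3 at 4 against 2 weeks with edgeR and DESeq2, Loxl2 between 4 weeks of bleomycin and 6 weeks of recovery with the replicate block (0.61), and P4ha1 at 4 weeks and in that last comparison without a fold threshold. The call of P4ha3 at 2 weeks was lost under 5 alternatives (adjusted p 0.0337 to 0.132), that of Loxl4 at 4 against 2 weeks under 5 (0.0310 to 0.113), that of P4ha3 between 4 weeks of bleomycin and 6 weeks of recovery under 4 (0.0179 to 0.0746), and that of Loxl3 at 4 weeks without saline mouse 1 and 2-week mouse 2 (0.56). Of the 2 members called at 4 against 2 weeks, 1 was left without a filter, with only the groups compared, or without those 2 mice. Of the 2 called between 4 weeks of bleomycin and 6 weeks of recovery, 1 was left without a filter, with edgeR and with DESeq2. With the median of the list in place of its mean, 8 members in place of 3 were called relative to the collagens at 10 weeks of recovery, and 8 in place of 5 relative to fibroblast markers at 2 weeks. The median over all genes moved there from 0.455 to 0.703 and from 0.675 to 0.973 (log2). Both 0.703 and 0.973 lie above the fold threshold of 0.585. Without a fold threshold 8 in place of 5 were called relative to fibroblast markers at 2 and at 4 weeks, where the all-gene medians were 0.675 and 0.44. The shares of all genes called under these alternatives are not given, so these counts do not set the enzymes apart from other genes. The replicate numbers of the labels name different animals, and deviations of same-numbered mice had a median correlation of -0.0022 over 78 pairs (18 above 0.1). With that number as a block, 3, 4, 4 and 1 members were called against saline as before, 2 in place of 1 relative to the collagens at 6 weeks of recovery, and P4ha3 between 4 weeks of bleomycin and 6 weeks of recovery was lost. Depth limits P4ha3 most, with as few as 2 reads in a saline mouse. The other members had at least 15 reads in every mouse.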
